A study of Mus musculus with 4 samples.

Results

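Iron transport and storage is described here through 9 genes, of the 25124 gene symbols measured: Trf, Tfrc, Steap4, Slc11a2, Slc40a1, Fth1, Ftl1, Aco1 and Ireb2. The genes were chosen by their roles in cellular iron handling, with the difference between the treatment groups in these same libraries already known. Their own values in that contrast are therefore given as a description. Calls that the fit over all genes gave for them are printed but not read as tests of them. All 9 symbols were found in the table, and all 9 reached the floor used for the fit over all genes.

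RNA was sequenced from airway epithelial cells sorted from the lungs of wild-type C57BL/6 mice, a common inbred strain. All mice had received house dust mite (HDM), an aeroallergen that provokes allergic airway inflammation. One group was also given a compound that blocks SCD1 (stearoyl-CoA desaturase 1), which introduces the double bond of monounsaturated fatty acids. The other was given dimethyl sulfoxide (DMSO), a solvent that serves as the control. Each group had 2 libraries, replicates 1 and 2, and the labels do not name the inhibitor or its dose, do not give the age of the mice and do not say whether the 2 samples came from separate animals, so the spread between them may be technical. Library totals ran from 24591122 to 27013663 reads, and the values below are normalised reads, that is, reads of a gene after division by a factor for the library's depth.

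Most cells take up iron as transferrin bound to its receptor, reduce it and carry it across the endosomal membrane, then use it, store it in ferritin or export it through ferroportin. Iron regulatory proteins 1 and 2 (IRP1 and IRP2) adjust this traffic after transcription. In low iron they bind a stem-loop, the iron-responsive element, in the messenger RNA: in the 5′ untranslated region they block translation, as in ferritin, and in the 3′ untranslated region they protect the transcript from decay, as in the transferrin receptor. The lung lining is exposed to inhaled iron, and its epithelium and secretions hold several iron-binding proteins.

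The elements are shown because they mark where the 9 transcripts hold a strict form of the stem-loop that the products of Aco1 and Ireb2 bind. Other forms of it are missed, so a transcript may carry more elements than were found. The pattern searched was the letters CAGTGN as the loop, with 5 paired bases on either side, a C bulged out below them on the 5′ side, and at least 4 of the 6 positions below that paired (G with T allowed). It was sought on the sense strand in the untranslated regions of protein-coding transcripts (GENCODE M21, mm10), and it was found in 22 of 20488 genes (0.107%): in the 5′ region of 7 of 20017 and the 3′ region of 15 of 20356. Of the 9 iron genes, 4 held it, and these 4 supplied 7 matches, 4 of them in Tfrc. Each is printed 5′ to 3′ as DNA letters with the loop in capitals.
Fth1, 5′ region, chr19:9982732-9982760, plus strand: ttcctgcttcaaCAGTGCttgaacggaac
Ftl1, 5′ region, chr7:45459779-45459807, minus strand: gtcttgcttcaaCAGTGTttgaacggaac
Slc40a1, 5′ region, chr1:45925465-45925493, minus strand: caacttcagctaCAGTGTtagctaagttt
Tfrc, 3′ region, chr16:32631219-32631247, plus strand: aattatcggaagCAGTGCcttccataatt
Tfrc, 3′ region, chr16:32631598-32631626, plus strand: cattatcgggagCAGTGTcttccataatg
Tfrc, 3′ region, chr16:32631663-32631691, plus strand: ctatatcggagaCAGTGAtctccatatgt
Tfrc, 3′ region, chr16:32631710-32631738, plus strand: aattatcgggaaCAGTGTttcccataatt
The sites in Fth1, Ftl1 and Slc40a1 lay before the coding sequence and the 4 in Tfrc after it. Slc11a2 is known to make messenger RNAs with and without an element in the 3′ region. The letters searched, which allow no second bulge, were not found in it, and counts per gene cannot separate its forms.

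The genes that encode the iron regulatory proteins stood on opposite sides of their DMSO levels, Ireb2 above and Aco1 below. Ireb2 (chromosome 9, 54863789 to 54912530, plus strand) encodes IRP2, a protein that is degraded when iron is plentiful. It had 2703 and 2640.4 normalised reads in the 2 inhibitor libraries, against 1856 and 1920 in the 2 DMSO libraries. Both inhibitor values lay above both DMSO values, and neither pair of replicates differed by more than 0.048 on the log2 scale. The log2 fold change, inhibitor over DMSO, was 0.50 ± 0.14 (SE), which is 1.41-fold higher. It stayed between 0.47 and 0.52 in 15 other ways of fitting or scaling these same libraries. Some of these settings, such as another floor, cannot change the fold change of a gene.

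Aco1 (chromosome 4, 40143081 to 40198338, plus strand) encodes IRP1, which is a cytosolic aconitase when it carries an iron-sulfur cluster and binds the element when it does not. It had 1289 and 1309 normalised reads with the inhibitor, against 2038 and 1807 with DMSO. The groups did not overlap here either, with the inhibitor libraries lower. This is a log2 fold change of -0.55 ± 0.16 (SE), 1.47-fold lower, with values of -0.64 to -0.47 over the same 15 settings.

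Their ratio within a library, which no scaling of libraries can alter, separated the groups too. This follows from the values above, with Ireb2 higher and Aco1 lower in both inhibitor libraries, and is no separate result. Ireb2 stood at 2.10 and 2.02 times the normalised reads of Aco1 in the inhibitor libraries, against 0.911 and 1.06 times in the DMSO libraries. These ratios are of reads and not of molecules, since the transcripts differ in length. The other pair of related products, the ferritin heavy and light chains, showed a much smaller shift: Fth1 over Ftl1 was 2.19 and 2.07 with the inhibitor, against 1.89 and 2.05 with DMSO. The DMSO libraries alone spanned more of that range than the gap between the groups.

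**Figure D1:**
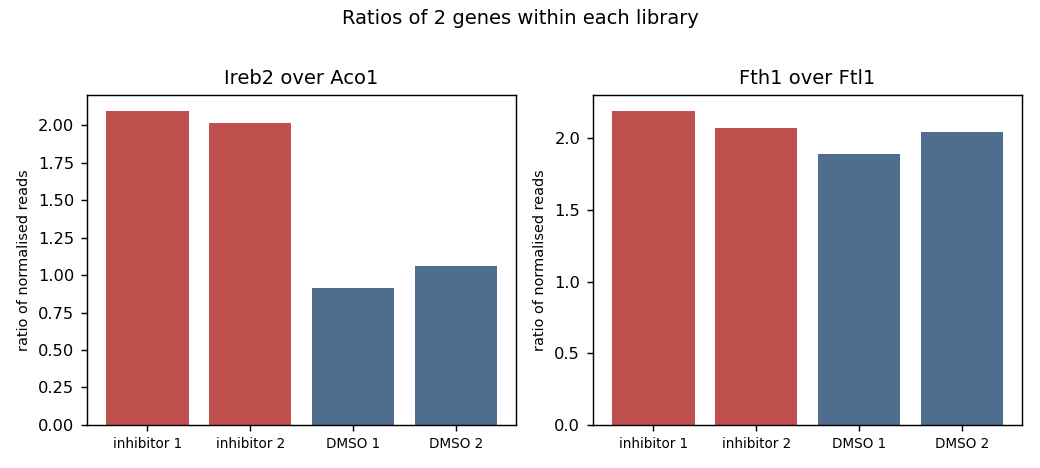
Ratio of normalised reads of 2 genes within each library: Ireb2 over Aco1 (left) and Fth1 over Ftl1 (right), with the inhibitor libraries in red and the DMSO libraries in blue, and axes starting at 0. The Ireb2 over Aco1 ratio was 2.10 and 2.02 with the inhibitor and 0.911 and 1.06 with DMSO, while the 4 Fth1 over Ftl1 bars lay between 1.89 and 2.19.

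Among the genes of iron uptake, Trf had the largest difference of the 9. Trf (chromosome 9, 103204001 to 103230444, minus strand) encodes transferrin, the secreted protein that carries ferric iron in plasma and in airway lining fluid. It had 6381 and 4147 normalised reads with the inhibitor, against 12899 and 11395 with DMSO. All values with the inhibitor lay below those with DMSO, and the inhibitor replicates were 0.62 apart on the log2 scale. Trf was 2.35-fold lower (log2 fold change -1.23 ± 0.16, SE), and the log2 value was -1.54 with SCD1 inhibitor replicate 1 left out and -0.92 with replicate 2 of that group left out.

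Tfrc, the receptor that brings iron-loaded transferrin into the cell (chromosome 16, 32608920 to 32632794, plus strand), had 2211 and 2115 normalised reads with the inhibitor, against 3123 and 2363 with DMSO. The inhibitor values were close to each other and below both DMSO values, of which replicate 2 was the nearer. Its log2 fold change was -0.33 ± 0.16 (SE), while the DMSO replicates alone were 0.40 apart, and it was -0.13 without DMSO replicate 1. This is the transcript with 4 matches to the element printed above.

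Steap4 encodes a metalloreductase that turns ferric into ferrous iron and is also known as an inflammation-responsive gene (chromosome 5, 7960457 to 7982213, plus strand). It was scarce, with 81.2 and 124 normalised reads in the inhibitor libraries, against 275 and 178 in the DMSO libraries. The groups did not overlap, but each pair of replicates was spread, by 0.48 on the log2 scale with the inhibitor and 0.56 with DMSO. The log2 fold change of -0.97 ± 0.43 (SE) ranged from -1.25 without DMSO replicate 2 to -0.69 without DMSO replicate 1.

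Slc11a2 encodes DMT1, the transporter that moves ferrous iron out of the endosome and into the cell (chromosome 15, 100387898 to 100425072, minus strand). Its values were 4501 and 4767 normalised reads with the inhibitor, against 4517 and 4823 with DMSO. The groups overlapped almost wholly. Slc11a2 had a log2 fold change of -0.011 ± 0.12 (SE), with a 95% interval of -0.27 to 0.24.

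**Figure D2:**
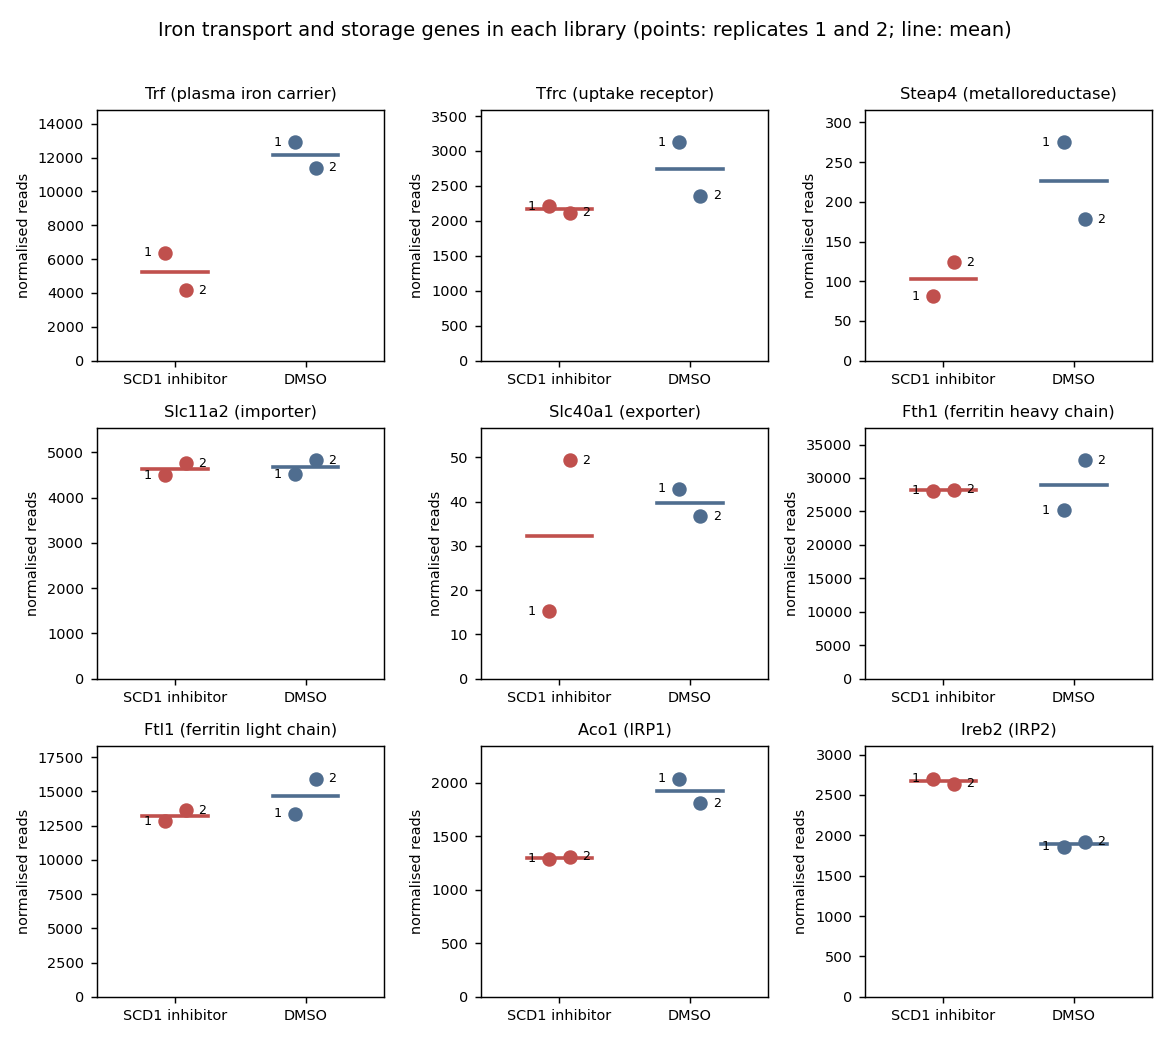
Normalised reads (vertical axes, each starting at 0) of the 9 iron genes in each library, with the inhibitor group in red on the left and the DMSO group in blue on the right. Points are replicates 1 and 2, lines are means, and the groups are apart for Trf, Tfrc, Steap4, Aco1 and Ireb2 and overlap for Slc11a2, Slc40a1, Fth1 and Ftl1.

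The storage genes were the most abundant of the 9 and differed little between groups. Ferritin is a shell of heavy chains, which oxidise the iron that enters, and light chains, which help it to mineralise. Fth1, the heavy chain (chromosome 19, 9980598 to 9985098, plus strand), had 28101 and 28217 normalised reads with the inhibitor, against 25206 and 32620 with DMSO. Both inhibitor values lay between the DMSO values. For Fth1 the log2 fold change was -0.026 ± 0.12 (SE; 95% interval -0.29 to 0.24), and it was 0.16 without DMSO replicate 2.

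Ftl1, the light chain (chromosome 7, 45457944 to 45459884, minus strand), had 12821 and 13618 normalised reads with the inhibitor, against 13353 and 15936 with DMSO. The groups overlapped, with DMSO replicate 2 the highest. For Ftl1 it was -0.14 ± 0.11 on the log2 scale (SE, 95% interval -0.39 to 0.10). The annotation holds processed copies of both ferritin genes whose reads the counting may have split or merged, so the 2 levels are uncertain. Ferritin is set mainly at translation through the elements printed above, so these transcript levels do not measure the protein.

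Slc40a1 encodes ferroportin, the only known iron exporter of mammalian cells (chromosome 1, 45908068 to 45926523, minus strand). It was close to the floor for testing, with 15.3 and 49.3 normalised reads with the inhibitor, against 42.9 and 36.7 with DMSO. The inhibitor libraries held both the lowest and the highest value, so the groups overlapped. With 16 reads behind the lowest value, its exact Poisson 95% interval is 8.74 to 24.8 normalised reads, which covers counting error only. The log2 fold change of -0.24 ± 0.63 (SE) became 0.20 without SCD1 inhibitor replicate 1. The Poisson interval of the other inhibitor library is 36.2 to 65.6, so the inhibitor replicates differed by more than counting error.

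**Figure D3:**
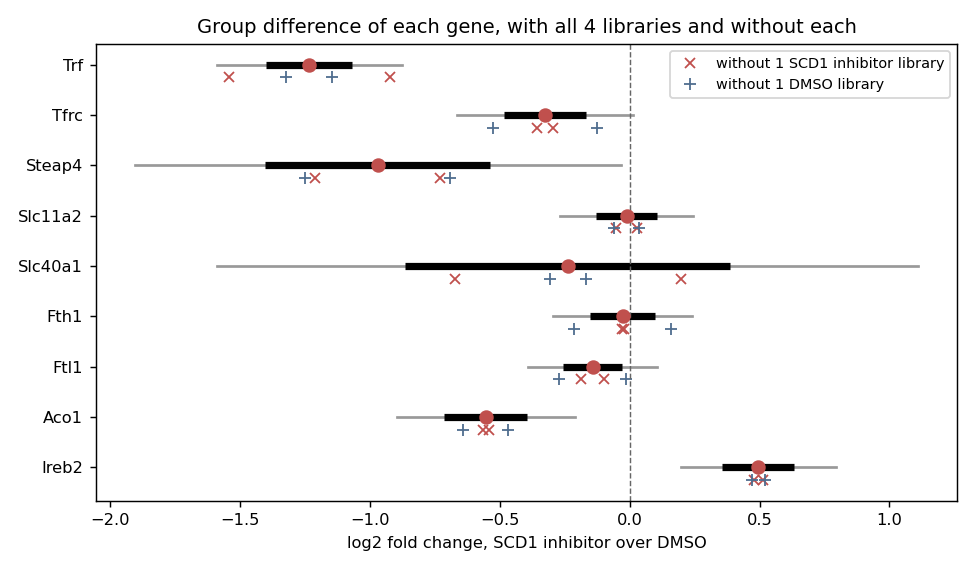
Log2 fold change (horizontal axis, SCD1 inhibitor over DMSO) of each iron gene. Circles are values from all 4 libraries, thick bars the SE, thin bars the 95% interval, and crosses and plus signs below each row the value without 1 inhibitor or 1 DMSO library. Trf, Steap4 and Aco1 stayed below 0 and Ireb2 above 0 without any 1 library, while Fth1, Slc11a2 and Slc40a1 lay on both sides of 0.

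The level of a gene can be set beside that of another only per length. Divided by the length of the principal annotated transcript, the order of levels was Fth1, Ftl1, Trf, Slc11a2, Tfrc, Aco1, Ireb2, Steap4 and Slc40a1. Fth1 averaged 19100.4 normalised reads per kilobase (range over the 4 libraries 16872 to 21834), Ftl1 14393 (13245 to 16463), Trf 3386 (1613 to 5017) and Slc11a2 1538 (1488 to 1594). Tfrc averaged 502, Aco1 420.3 and Ireb2 395 reads per kilobase, and the ranges of these neighbours overlapped. Steap4 averaged 52.2 and Slc40a1 10.7 reads per kilobase. Divided by the length of all exons of a gene instead, Ftl1 came before Fth1 and the other 7 kept their places.

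Counted together, 8 of the 9 genes had a negative and 1 a positive log2 fold change, with a median of -0.24, where 7000 of the 13810 genes tested were positive and 6810 negative, with a median of 0.0056. In 5 of the 9 the groups did not overlap, where this held for 44.9% of all genes tested; 4 of these, Trf, Tfrc, Steap4 and Aco1, were lower with the inhibitor, as 22.2% of all genes tested were without overlap. In limma's fit over all genes, 1 of the 9, Trf, was called at a Benjamini-Hochberg adjusted p under 0.05, where 1.79% of all genes were called. Since the genes were picked with this contrast known, nothing is read from these counts. The call of Trf ended without SCD1 inhibitor replicate 2, without limma's intensity trend and with edgeR.

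Among other genes of iron handling, 2 passed the test. Across 8 lists of other iron genes, which hold 83 genes outside the 9 and were also drawn up with earlier results of these data known, 72 reached the floor. With limma, 2 fell at an adjusted p under 0.05, Ltf and Epas1, where 0.427% of all genes tested were called lower. None rose, where 1.36% of all genes tested were called higher. At an unadjusted p under 0.05 there were 7 lower and 2 higher, where 5.92% of all genes tested were lower and 8.16% higher at that threshold. The unadjusted counts of single lists below are read against the same shares. The median log2 fold change of the 72 was -0.11, and the groups did not overlap in 29 of them (40.3%).

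Epas1 encodes HIF-2α, an oxygen-regulated transcription factor whose messenger RNA is known to carry an iron-responsive element in its 5′ region. It lies on chromosome 17 (86753700 to 86833410, plus strand). It had 9649 and 9735 normalised reads with the inhibitor, against 14951 and 14771 with DMSO. The replicates of each group were nearly equal and the groups far apart, and Epas1 was 1.53-fold lower with the inhibitor. Its log2 fold change was -0.62 ± 0.10 (SE), at an adjusted p of 0.0110 in limma. Leaving out SCD1 inhibitor replicate 1 ended the call (limma adjusted p = 0.235, log2 fold change -0.61), as did leaving out replicate 2 of that group (0.300, -0.62). It also ended with edgeR (adjusted p = 0.0760) and with limma without the intensity trend (0.453). The strict pattern printed above was not found in its untranslated regions. On the same list, Cdc42bpa, a kinase, had a log2 fold change of 0.36 ± 0.15 (SE, limma adjusted p = 0.299), which reached 0.51 and passed without DMSO replicate 1 (adjusted p = 0.0485).

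Ltf encodes lactoferrin, a secreted relative of transferrin that withholds iron from microbes. It had 1739 and 6524 normalised reads with the inhibitor, against 17160.3 and 11143 with DMSO. The inhibitor libraries were both lower and also far from each other (-2.03 ± 0.40 on the log2 scale, SE, at a limma adjusted p of 0.0263). Leaving out SCD1 inhibitor replicate 1 ended the call, at -1.08 (limma adjusted p = 0.176), and leaving out replicate 2 of that group gave -2.97. Its adjusted p was 0.221 with edgeR, 0.258 with DESeq2, 0.104 in limma with no floor and 0.477 without the intensity trend. Lcn2, which binds iron-carrying siderophores, had 702 and 1022 normalised reads with the inhibitor, against 921 and 1083 with DMSO, and its groups overlapped.

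The remaining uptake and export genes had mostly small differences. Of 14, 9 reached the floor, and none passed with limma in either direction (2 lower and 0 higher at an unadjusted p under 0.05, where 5.92% of all genes were lower; 8 of 9 log2 fold changes negative, median -0.31). Cp, the ferroxidase ceruloplasmin, was the most abundant of them, with 9416 and 7022 normalised reads with the inhibitor, against 10322 and 9612 with DMSO (-0.29 ± 0.13 on the log2 scale, SE; limma adjusted p = 0.353). Hfe, a partner of the transferrin receptor, had 544 and 602 normalised reads with the inhibitor, against 759 and 887 with DMSO (-0.50 ± 0.23, SE; adjusted p = 0.340). Tfr2, Hephl1 and Meltf were at 0 in all 4 libraries, which allows up to 3 reads in each.

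Iron chaperones and the machinery that degrades the iron regulatory proteins gave no call with limma, DESeq2 or edgeR; with limma 0 chaperone genes and 1 control gene, which was higher, had an unadjusted p under 0.05 (8.16% of all genes were higher at that threshold). The 5 chaperone and ferritin turnover genes tested had a median log2 fold change of -0.076, with Pcbp2, a cytosolic iron chaperone, at -0.11 and Glrx3, a glutaredoxin, at -0.15. The 6 genes that control the regulatory proteins had a median of 0.058. Among them Cul1, the scaffold of the ubiquitin ligase that acts on IRP2, had 0.37 ± 0.16 (SE, limma adjusted p = 0.324). Herc2, a ligase that acts on the iron sensor of that complex, had 0.033, and Ciapin1, which takes part in cytosolic iron-sulfur assembly, had -0.34.

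The hepcidin genes themselves, Hamp and Hamp2, were at 0 in all 4 libraries. Of 13 genes of the hepcidin axis, 10 reached the floor, none was called with limma (0 at an unadjusted p under 0.05), and their median log2 fold change was -0.23. Bmp2, which induces hepcidin in liver, had the lowest value, -0.89 ± 0.45 (SE, limma adjusted p = 0.407), and the receptor gene Bmpr1a had 0.29 ± 0.14 (SE, adjusted p = 0.382).

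Heme genes and those of mitochondrial iron-sulfur clusters were also without a call in limma's fit of all 4 libraries with group as the only term. Of the 18 heme genes tested, 12 had a negative log2 fold change (median -0.11), with 2 lower and 0 higher at an unadjusted p under 0.05 (5.92% and 8.16% of all genes). Hp, haptoglobin, which captures free hemoglobin, had 26147 and 18496 normalised reads with the inhibitor, against 33494 and 32393 with DMSO. Its groups did not overlap, and its log2 fold change of -0.58 ± 0.14 (SE, limma adjusted p = 0.0575) passed without DMSO replicate 1 (adjusted p = 0.0325), without DMSO replicate 2 (0.0380) and with DESeq2 (0.000418). Without SCD1 inhibitor replicate 2 it was -0.33 (limma adjusted p = 0.770), and it did not pass with edgeR (0.197) or without the intensity trend (0.496). Abcb6, a porphyrin transporter, had -0.46 ± 0.15 (SE, limma adjusted p = 0.182), and Alas1, the first enzyme of heme synthesis, -0.076 ± 0.10 (SE). The 19 mitochondrial genes divided evenly (10 positive, median 0.093; 1 lower at an unadjusted p under 0.05), and Iba57, which helps to assemble clusters, had the lowest value, -0.55 ± 0.33 (SE, adjusted p = 0.493).

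**Figure D4:**
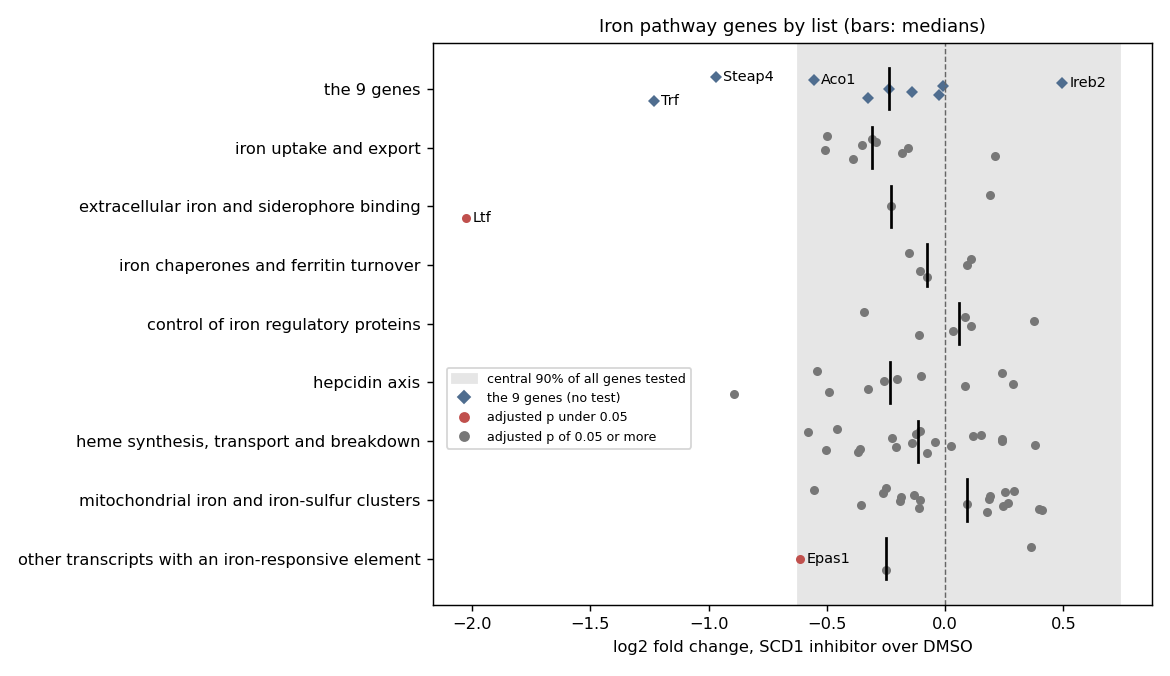
Log2 fold change (horizontal axis, SCD1 inhibitor over DMSO) of the 9 iron genes (blue diamonds, no test) and of the tested genes of each other iron list (circles, red where the adjusted p over all genes was under 0.05), with black bars at list medians. The grey band holds the central 90% of all genes tested, from -0.62 to 0.74, and Ltf and Epas1 are the circles that passed.

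The 18 genes outside the 9 whose transcripts held the printed pattern were listed after the values were known, by sequence alone. With limma, 0 of the 13 that reached the floor were called (4 lower and 0 higher at an unadjusted p under 0.05, where 5.92% of all genes tested were lower). The groups did not overlap in 7 of the 13 (53.8%, against 44.9% of all genes tested), with a median log2 fold change of -0.10 and 5 positive and 8 negative. Over 4 libraries, the genes whose centred log2 values lay nearest to those of Trf were Rab17, Slc5a5 and Dnase1l2, at Euclidean distances of 0.12, 0.13 and 0.14. All 3 had far fewer reads, with means of 61.8, 28.2 and 47.6 normalised reads over the 4 libraries, where the added constant of 25.8 reads bears on the shape. The likeness is a description of 4 points.

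The sorted cells carried the epithelial markers listed, with summed levels of 99086 and 103951 normalised reads with the inhibitor, against 103507 and 105042 with DMSO (7 genes, led by Cdh1). They also carried alveolar type 2 markers, at 308120 and 255838 with the inhibitor, against 393899 and 450551 with DMSO (7 genes, led by Sftpc, 4 called lower). Goblet markers were at 19157 and 37168 with the inhibitor, against 106489 and 80913 with DMSO (8 genes, 6 called lower). Club cell markers were at 601006 and 391660, against 648494 and 562516 (6 genes, 3 called lower). The marker calls are limma's at an adjusted p under 0.05, where 0.427% of all genes tested were called lower. Most of these calls ended with edgeR, and all ended without limma's intensity trend. Within the inhibitor group Trf was higher in replicate 1. So were the club, alveolar type 2, alveolar type 1, macrophage, lymphocyte, neutrophil and red cell sums. Ltf was higher in replicate 2, as were the goblet, basal, endothelial, epithelial, ciliated and fibroblast sums. Fewer cells of a type and less RNA per cell cannot be told apart in such samples, and the part of these marker shifts in the values of Trf, Ltf and the other iron genes was not tested. Macrophage markers, of cells rich in ferritin and ferroportin, were at 6049 and 3890 with the inhibitor, against 3882 and 7362 with DMSO (11 genes, 1 at 0 in every library), so those groups overlapped. Most of that sum in every library was Lyz1 and Chil3, and only 7 of the 11 reached the floor. Taken by itself, Lyz1 did not overlap, at 2313 and 1986 with the inhibitor, against 2893 and 4218 with DMSO. Siglecf was also lower without overlap, at 29.6 and 14.7 with the inhibitor, against 53.6 and 72.3 with DMSO. Marco, below the floor, was higher without overlap, at 22.9 and 43.0 with the inhibitor, against 0 and 12.9 with DMSO. Of the 7 macrophage markers tested, 3 log2 fold changes were positive and 4 negative. Ciliated markers stood at 457494 and 473348 with the inhibitor, against 461652 and 468017 with DMSO. Alveolar type 1 markers were at 8265 and 7905, against 9454 and 10214 (5 genes, 1 called lower). Basal markers were at 913 and 3072, against 5232 and 3892. Endothelial markers were at 2349 and 2848 with the inhibitor, against 2469.8 and 6074 with DMSO, and fibroblast markers at 2489 and 2516, against 889.9 and 2155. Neutrophil markers summed to at most 143 reads in any library and lymphocyte markers to at most 269. Retnlg made up most of the neutrophil sum and Ptprc most of the lymphocyte sum. S100a8, S100a9, Ly6g and Mpo were at 0 in every library, as were Cd3g and Nkg7, so these sums say little of either cell type. Red cell markers, of cells that take up much iron, were near 0, with at most 32.5 reads summed over 8 genes, and Hbb-bs and Slc4a1 at 0 throughout.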

How the data were processed

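The authors deposited 1 table of signal values, normalised reads per gene symbol in 4 libraries. From the values, each library is read counts divided by 1 size factor: every value was a whole multiple of its smallest step (100% within 0.01). The step of DMSO replicate 2 is 0.991, and its inverse, 1.009, matches the depth factor recomputed from the recovered reads. HOMER, DESeq2 and mm10 are named, per the submitters' processing notes, without roles; the aligner and the strand of counting were not given in the sources used here. Antisense or overlapping genes, such as Gm5475 at Slc11a2, may therefore share reads.

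Values were tested as log2(value + 25.8), where 25.8 equals 1 CPM at the mean library total, in 13810 genes with at least that mean. Folds are on that scale, which understates those of low genes. limma 3.58.1 (R 4.3.3, intensity trend, group as the only term) gave Benjamini-Hochberg adjusted p over all genes, threshold 0.05. The recovered reads entered edgeR 4.0.16 and DESeq2 1.42.0. Scripts were tested on simulated data. Symbols were matched to GENCODE M21 (24505 by symbol, 152 by an older one, 467 unmatched). Element sequences come from its transcripts; 1 chromosome and incomplete transcripts were not searched. The 9 genes and all lists were chosen with earlier results of these data known. Named are the 9, up to 4 called genes, the 2 of smallest p and the most abundant of each function list, the most abundant marker per list, and the 3 genes nearest to the member of largest change. Genes at 0, Chil3, Siglecf and Marco were named after their values were seen. The older symbols Hfe2 and Fam132b were read as Hjv and Erfe. Figures used matplotlib 3.10.9 in Python 3.11.15. A few results under this rule are left out here.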

Additional observations from a re-analysis of the deposited data

How the results depend on the processing

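Calls over all genes depended on the spread model and on single libraries, while the log2 fold changes of the 9 iron genes changed sign only where given below. With all libraries limma called 188 genes higher and 59 lower. The counts were 469 and 205 with the replicate block, 359 and 141 with crossed replicate numbers (added after seeing the data), 51 and 13 with no floor, 107 and 35 with upper quartile scaling, 7 and 3 with edgeR, 339 and 145 with DESeq2, and 0 and 0 without the intensity trend (1423 at an unadjusted p under 0.05). Without 1 library each they ran from 0 to 616 higher and from 5 to 179 lower. The labels do not say whether the replicate numbers pair samples. Differences between replicates correlated at 0.073 between groups over genes, which cannot settle whether samples of 1 number were handled together. The block gave 3 calls among the 9 (Trf, Aco1 and Ireb2), against 1 without it (Trf), 1 with crossed numbers and 2 with DESeq2 (Trf and Ireb2). From these counts, too, nothing is read, since the 9 were picked with this contrast known. Of the 72 other iron genes, 2 were called lower; this was 1 with no floor, 0 without the intensity trend, 0 with edgeR, and 0 to 3 without 1 library each. Higher calls were 0, and 0 to 1 without 1 library each. The median of the 9, -0.24, is the value of Slc40a1, a gene close to the floor. It moved by no more than the spread between replicates in the 15 settings, of which some, such as no floor, cannot change it. Fth1 turned positive without DMSO replicate 2 (0.16), Slc40a1 without SCD1 inhibitor replicate 1 (0.20), and Slc11a2 without either of those libraries (0.036 and 0.030); no other of the 9 changed sign. The cause of these shifts was not tested. Counting error is highest for Slc40a1 (16 reads in 1 library) and Steap4 (up to 10.8%), but the Poisson intervals of the inhibitor replicates do not overlap for either.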
